A study of Drosophila melanogaster with 3 samples.

Results

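The 10 genes described here make up the core of the JAK-STAT pathway of Drosophila melanogaster and its best known inhibitors: the ligand genes upd1, upd2 and upd3, the receptor gene dome, the kinase gene hop, the transcription factor gene Stat92E, and the inhibitor genes Socs36E, et, Ptp61F and Su(var)2-10. They were taken as a list of names, 10 of 13945 protein-coding genes on the 6 chromosome arms examined. The names follow the pathway and not a cutoff on these data, although earlier results of the data were known when the list was made. The protein mapped was CG12071 carrying GFP (green fluorescent protein) at its C-terminal end, by chromatin immunoprecipitation and sequencing (ChIP-seq) in whole embryos aged 12 to 24 hours, males and females together. All 3 biological replicates came from 1 transgenic line and form 1 group, so no condition could be compared. Which promoter drives the transgene, and whether the flies keep an untagged copy of CG12071, is not given in the sources used here. Whole embryos were used, so the cells in which a site was occupied cannot be told apart. The labels' description line names an input control, but the other fields of the same samples describe an immunoprecipitation, and the samples were read as such.

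In flies, secreted Unpaired ligands bind the receptor Domeless. The kinase Hopscotch, bound to the receptor, is then activated and phosphorylates Stat92E, which enters the nucleus and binds DNA at sites built on TTC and GAA half-sites. The pathway acts in embryonic segmentation and in the forming trachea, gut and posterior spiracles. Transcription of Socs36E is raised by the pathway, and its product dampens signalling in turn, so it serves as a standard reporter of pathway activity.

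A summit is the single base at which the authors' peak caller placed the height of a peak. Entries were ranked within each list by the authors' signal value, so that rank 1 is the strongest. The authors' thresholded list holds 4261 peaks that passed a cutoff on the irreproducible discovery rate, and the pooled list and each replicate list hold 30000 entries, peaks and background together. Replicate 3 was the weakest library, with 4015 entries whose q-value was at most 0.05, against 13828 in replicate 1 and 12616 in replicate 2. Read depth is unknown. Of all protein-coding genes, 27.6% had a thresholded summit inside the gene or within 2 kb of it, and 7 of the 10 pathway genes did: Stat92E, Socs36E, dome, Ptp61F, Su(var)2-10, upd2 and upd3. These genes held 14 thresholded summits, from 5 at Socs36E and 3 at Stat92E down to 2 at Ptp61F and 1 at each of the others. The genes hop, upd1 and et had none. The median gene of the list held 1 such summit and the median protein-coding gene 0.

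Gene length bears on this count, because the pathway genes are long. Their median span was 7.27 kb against 2.17 kb for all protein-coding genes. A thresholded summit was present at 20.7% of all genes spanning up to 5 kb, where upd2 had one and upd1 and et did not. Among genes over 5 to 10 kb the share was 36.9%, and dome, upd3 and Su(var)2-10 had a summit but hop did not. For genes over 10 to 20 kb, the class of Stat92E and Socs36E, it was 51.3%, and for genes over 20 kb, the class of Ptp61F, 62.2%. The count of 7 was not tested against these shares. All 4 genes off the X had a thresholded summit, but only 3 of the 6 on the X. Of all protein-coding genes on the X 27.5% had one, close to the 27.6% of all genes. The 6 genes on the X span 2.63 to 7.46 kb and the 4 others 5.88 to 132.8 kb. Chromosome and length therefore cannot be told apart within the list.

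**Figure D1:**
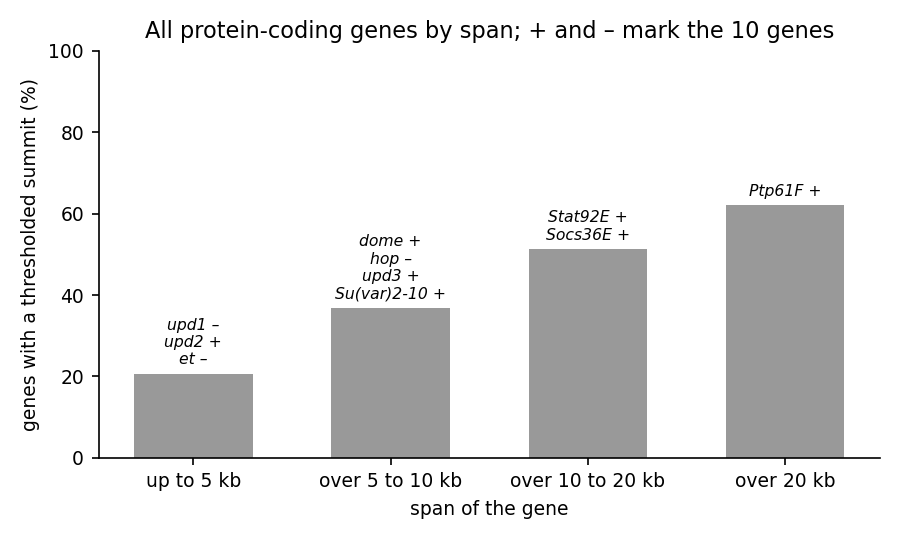
Percentage of all protein-coding genes with a thresholded summit inside the gene or within 2 kb (bars), by the span of the gene. The share rises from 20.7% of genes up to 5 kb to 62.2% of genes over 20 kb, and each pathway gene is written over its class with + where it had a summit and – where it had none.

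Stat92E (FBgn0016917), the transcription factor of the pathway, carried the highest-ranked thresholded summit of the list. The gene runs on the minus strand of 3R from 20535323 to 20552311 (dm6) and has 2 start sites (TSSs), a distal one used by 5 of its 11 annotated transcripts and a proximal one, 1204 bp further in, used by the other 6. The strongest summit, at 20550736, lay 371 bp past the proximal TSS, within exon 1 and its 5' UTR in the 6 proximal transcripts and in intron 1 of the 5 distal ones. Its rank among thresholded peaks was 175, and the replicates, in order from 1 to 3, ranked it 123, 166 and 326 (mean 205 ± 107, SD, n = 3). The 3 replicates placed its summit within 8 bp of the pooled position. A further pair of summits followed in intron 1 of all 11 transcripts, at 981 and 1919 bp past the proximal TSS. They ranked 1427 and 2217. In replicates 1, 2 and 3 the nearer ranked 2875, 1487 and 1033 (mean 1798 ± 960, SD, n = 3), and the farther ranked 3263, 1637 and 2962 (mean 2621 ± 865, SD, n = 3). The strongest site ranked ahead of both others in every replicate, and the nearer intron site ahead of the farther, although the ranges of the intron sites over the replicates overlapped.

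Near the distal TSS of Stat92E the entries were weaker. The best pooled entry there lay 554 bp past the distal TSS, upstream of the proximal one, and ranked 4929, after all thresholded peaks. This entry ranked 3983 in replicate 1 and 5387 in replicate 2, and replicate 3 had no entry within 100 bp. Within 500 bp of the distal TSS, the pooled list had an entry at 352 bp, of rank 12322 and a q-value of 0.0832. Replicates 1 and 2 ranked that entry 12087 and 28430, and replicate 3 had none within 100 bp. A cluster of entries in the far part of intron 1, near 9869 bp from the distal TSS, reached pooled rank 4737. There replicate 2 had an entry of rank 4096 and replicate 3 entries of rank 11395 and 14444. Replicate 1 had an entry at 8532 bp from the proximal TSS, between pooled entries at 8665 bp (rank 4737) and 8430 bp (rank 8788). This entry lay more than 100 bp from both and ranked 3400, among the strongest 4261 of replicate 1. The 101 bp around the 2 thresholded intron summits, and 30 bp around the summit next to the proximal promoter, read as follows on the gene's own strand; they are shown because they are the sites held in all 3 replicates.
Stat92E, 371 bp past the proximal TSS, chr3R:20550722-20550751, minus strand: agtgttgtgcgttggtgtttgtgtaccaaa
Stat92E, 981 bp past the proximal TSS, chr3R:20550076-20550176, minus strand: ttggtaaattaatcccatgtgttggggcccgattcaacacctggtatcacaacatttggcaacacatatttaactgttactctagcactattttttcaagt
Stat92E, 1919 bp past the proximal TSS, chr3R:20549138-20549238, minus strand: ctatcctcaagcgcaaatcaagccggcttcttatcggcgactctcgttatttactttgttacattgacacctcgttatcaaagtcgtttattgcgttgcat

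Socs36E (FBgn0041184), the feedback inhibitor, had the most thresholded summits of the list, 5, a number reached by 1.05% of protein-coding genes of all lengths. Socs36E spans 13.7 kb, and the share among genes of like span was not computed. Of its 5 summits, 2 lay past its 3' end. The gene lies on 2L from 18138675 to 18152417 on the minus strand, with 1 TSS for its 3 transcripts. The strongest summit, at 18149023, was in intron 1, 3394 bp past the TSS. Among thresholded peaks it ranked 590, and replicates 1 to 3 ranked it 684, 502 and 661 (mean 616 ± 99.1, SD, n = 3), a narrow range. Nearer the TSS, at 1068 bp in the same intron, the weakest of the 5 ranked 4188, close to the end of the thresholded list. That site was strong in replicate 3 alone, at rank 1922, against 6813 in replicate 1 and 9940 in replicate 2. Another summit inside the gene fell in coding exon 2, 10579 bp past the TSS, and ranked 1876. Replicate 1 ranked it 1097 and replicate 3 3538, and replicate 2 had its nearest summit 103 bp away at rank 1789, just beyond the 100 bp taken here as the same site. The 101 bp around the exon 2 summit held runs of CAC and CAG and were 61.4% GC. The median over all thresholded windows was 38.6%.

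The other 2 summits counted for Socs36E lay past its 3' end, at the start of the neighbouring gene kel, which encodes a ring canal protein. At 714 bp past the end of Socs36E and 122 bp inside the 5' UTR of kel, the stronger ranked 1309, and it ranked 858, 1153 and 3624 in replicates 1, 2 and 3 (mean 1878 ± 1519, SD, n = 3). The other, in intron 1 of kel, 1340 bp past its TSS, ranked 1516 and, in replicates 1, 2 and 3, 2372, 1943 and 1177 (mean 1831 ± 605, SD, n = 3). Between the intron 1 and exon 2 sites of Socs36E, the pooled list held weaker entries throughout the intron, 3 of them at a q-value of 0.016 or less in the stretch from 4695 to 6888 bp past the TSS. Their pooled ranks were 5012, 5603 and 7407. The entry of rank 5012 was weakest in replicate 3, at rank 9832 against 4227 and 5992 in replicates 1 and 2. The entry of rank 5603 was strongest there, at rank 2488 against 10340 and 12085. Near the entry of rank 7407, replicate 3 had one of rank 2843 and replicate 1 one of rank 13943. At the TSS the pooled list had an entry at 24 bp, of rank 10749 and a q-value of 0.0573, and replicate 2 one at 22 bp, of rank 10395. Replicate 1 had a stronger entry at -90 bp, of rank 4228 and a q-value of 8.9e-05.

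**Figure D2:**
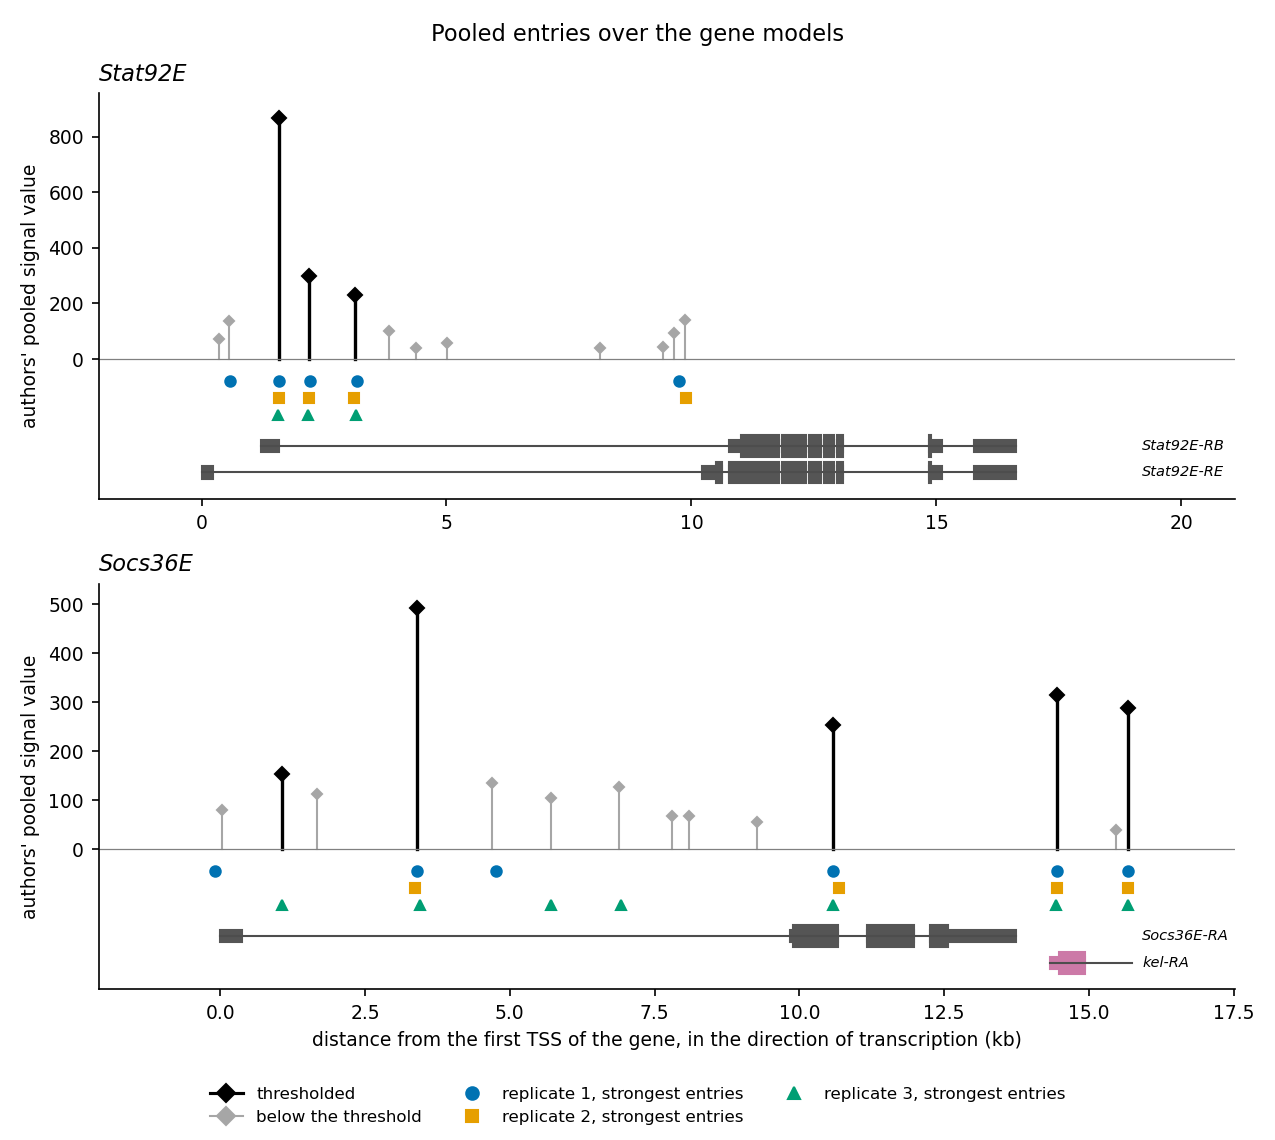
Authors' pooled signal value of each pooled entry (stems, black where the entry is in the thresholded list) against distance from the first TSS of Stat92E (top) and Socs36E (bottom), in kb along transcription; coloured marks are entries among the 4261 strongest of each replicate, and boxes are exons, thicker where coding, with kel in pink. The tallest Stat92E stem stands at the proximal exon 1, and the Socs36E stems are spread over the gene and the start of kel.

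Binding letters of the pathway's own factor occurred at 1 of the 14 sites. The window of 50 bp to either side of each summit was searched on both strands for TTCNNNGAA, and for TTC and GAA set 4 bases apart, the sites that Stat92E is known to bind. Each spacing was found once, and both in the window of the strongest Socs36E summit, centred 41 bp and 7.5 bp from it. Of all thresholded windows 2.93% held the 3-base spacing and 2.72% the 4-base spacing. Around TSSs of protein-coding genes, in windows of the same length, the shares were 2.77% and 3.30%. Both spacings together, a combination not among the planned searches, were present in 4 of 4261 thresholded windows, the Socs36E one included. No Stat92E window held either. The 8-mer whose share rose most from flanking windows to thresholded summits, counted without the pathway genes, was AATATTTG on either strand (3.74% of summit windows, 1.15% of windows 300 bp to the side, 1.01% of TSS windows). Among the 14 sites it occurred in the kel intron summit alone, where it stood 2 times. Windows with at least 2 copies, a count likewise not planned, were 24 of 4261, the kel one included. The next 8-mers in that order, GTAAACAA and AACAAATA, occurred at none of the 14. The short words GAGAG (15.4% of thresholded windows), CACGTG (1.22%) and TATCGATA (0.634%) were found in 3, 0 and 0 of the 14 windows, the GAGAG words at dome, upd2 and the farther Stat92E intron site. The sites with matches are shown with the TTC-to-GAA stretches and the copies of AATATTTG in capitals, on the strand of Socs36E.
Socs36E intron 1, chr2L:18148973-18149073, minus strand: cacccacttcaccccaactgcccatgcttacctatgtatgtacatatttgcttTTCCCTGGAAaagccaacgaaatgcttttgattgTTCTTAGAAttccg
kel intron 1, chr2L:18136693-18136793, minus strand: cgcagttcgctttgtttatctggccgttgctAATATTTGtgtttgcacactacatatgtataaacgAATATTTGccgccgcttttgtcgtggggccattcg

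The receptor gene dome (FBgn0043903; X, 19676061 to 19683518, minus strand) had 1 thresholded summit, in its 5' UTR 397 bp past its only TSS. It ranked 2194 in the thresholded list. Replicates 1 and 2 gave nearly the same ranks, 2167 and 2323, but replicate 3 had no entry anywhere in the gene or within 2 kb. The closest replicate 3 entry was 7144 bp from the summit. Of the 708 thresholded peaks on the X, 73 (10.3%) had no replicate 3 entry within 100 bp, against 12 (1.69%) for each of the other replicates. Over all 4261 thresholded peaks the shares were higher, 14.7% for replicate 3 and 3.03% and 3.10% for replicates 1 and 2. The dome site thus rests on 2 replicates. Next to dome, et (FBgn0031055; X, 19672312 to 19675891, minus strand), which encodes a related receptor that lowers signalling, begins 169 bp beyond the 3' end of dome. It had no pooled entry, and its best entry in any replicate was of rank 23804, in replicate 1. The nearest thresholded summit was 3713 bp from et, close to Zw.

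The kinase gene hop (FBgn0004864; X, 11360930 to 11368098, minus strand) had hardly any signal. No pooled entry fell inside hop or within 2 kb, and the 1 entry among the replicate lists ranked 18055, in replicate 1. The same absence was common in the genome: 40.7% of protein-coding genes had no pooled entry, and 3 of the 10 pathway genes did not. A strong thresholded peak of rank 167 lay 9386 bp from hop, nearer to CG1737.

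The 3 ligand genes lie within 72.6 kb of the X, counted with 2 kb at each side (18238654 to 18311291), and differed among themselves. Upd1, Upd2 and Upd3 are secreted cytokines, of which Upd1 is the main embryonic ligand and Upd2 and Upd3 are also known from stress and immune responses. At upd1 (FBgn0004956) there was no pooled entry, and the best replicate entries ranked 27747 and 27946, in replicates 1 and 2. At upd2 (FBgn0030904) the thresholded summit, of rank 3961, was outside the gene, 1169 bp past its 3' end. It ranked 5481, 15129 and 1797 in replicates 1, 2 and 3 (mean 7469 ± 6885, SD, n = 3), with a q-value of 0.0918 in replicate 2. Replicate 3 was the only one to place it among its strongest 4261. At upd3 (FBgn0053542) the summit, of rank 3968, fell in the 3' UTR of exon 4, 7218 bp past the TSS. Its ranks were 5208, 4157 and 4874 (mean 4746 ± 537, SD, n = 3), close together and near the edge of the strongest 4261, with a q-value of 0.0773 in replicate 3. A further thresholded summit of the interval lay between upd3 and upd1, outside both windows, and ranked 2546. The interval held 0.0413 thresholded summits per kb, from 3 summits, against 0.0318 over the 6 arms. The other lists had fewer entries there than over the arms, 0.151 per kb in the pooled list and 0.124, 0.179 and 0.165 in replicates 1, 2 and 3, each against 0.224. No ligand TSS had a thresholded summit within 2 kb.

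Among the remaining inhibitors, Ptp61F (FBgn0267487), a tyrosine phosphatase that removes the activating phosphate, is by far the longest gene of the list at 132.8 kb (3L, 1342493 to 1475257, minus strand). It held 2 thresholded summits, 0.0146 per kb of its window against 0.282 for Socs36E and 0.143 for Stat92E. Both were in introns of 2 of its 5 transcripts, intron 1 of the one and intron 3 of the other, and outside the remaining 3. They lay 17785 and 28512 bp upstream of the start site shared by Ptp61F-RA and Ptp61F-RB. The stronger ranked 1872, and in replicates 1, 2 and 3 it ranked 3635, 2195 and 1364 (mean 2398 ± 1149, SD, n = 3). The weaker ranked 3662 and, in the same order, 5007, 4016 and 3090 (mean 4038 ± 959, SD, n = 3). Within these introns lies another gene, ru, which encodes a rhomboid protease of the EGF receptor pathway on the opposite strand. The stronger summit was 2244 bp upstream of the ru TSS, and the weaker was inside intron 1 of ru, 823 bp from a glutamate tRNA gene. None of the 4 TSSs of Ptp61F had a thresholded summit within 10 kb. An entry at -108 bp from the TSS shared by RA and RB had pooled rank 10331 and a q-value of 0.0514. The stronger site is shown as the best of Ptp61F.
Ptp61F intron, chr3L:1368334-1368434, minus strand: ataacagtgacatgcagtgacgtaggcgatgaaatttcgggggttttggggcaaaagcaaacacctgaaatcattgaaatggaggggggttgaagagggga

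The ranks of the strongest entries put the genes in a partial order. The mean best rank was 203 ± 21.5 for Su(var)2-10, 205 ± 107 for Stat92E, 616 ± 99.1 for Socs36E, 2398 ± 1149 for Ptp61F, 4746 ± 537 for upd3 and 7469 ± 6885 for upd2 (SD, n = 3 each). For dome it was 2245 ± 110 over the 2 replicates with an entry. Ranks of Su(var)2-10 and Stat92E overlapped, as did those of dome and Ptp61F and those of upd3 and upd2. Socs36E stood below Stat92E and above dome in every replicate with an entry, and Ptp61F above upd3. The ranks of different genes came from the same 3 replicate lists and are paired within each replicate. With only 3 replicates, no test of this order was made.

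**Figure D3:**
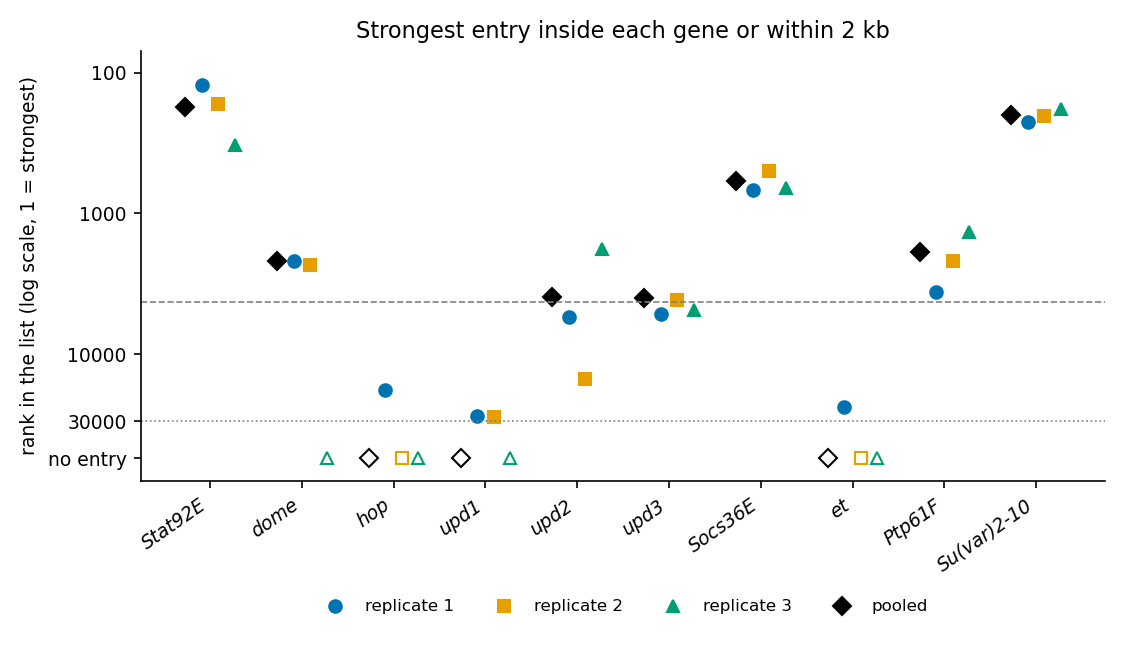
Rank of the strongest entry inside each gene or within 2 kb, in the pooled list and in replicates 1 to 3 (log scale, rank 1 at the top). The dashed line marks rank 4261, the dotted line the end of the lists at 30000, and open marks mean no entry. Su(var)2-10, Stat92E and Socs36E rank 684 or better in all lists, and hop, upd1 and et have no pooled entry.

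Su(var)2-10 (FBgn0003612), which encodes the fly PIAS protein, a SUMO ligase that restrains Stat92E, shared the top of this order through a site that is not its own promoter. The gene runs on the plus strand of 2R from 9116122 to 9122000 and has 2 TSSs and 14 transcripts. Its 1 thresholded summit lay 226 bp past its 3' end. That position is 98 bp upstream of the nearest TSS of GstE13, a glutathione S-transferase gene on the same strand, and inside the 5' UTR of 1 of the 2 GstE13 transcripts. By the SD of the ranks its replicates differed least of the 14 sites, with ranks of 224, 203 and 181 beside a pooled rank of 201. Spread in proportion to rank was not compared. Inside Su(var)2-10 itself the pooled list had no entry. The GstE13 site is counted here only because it lies within 2 kb.

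Most of the 14 summits lay away from the promoters of the pathway genes, as most thresholded summits lay away from any: 40.7% of all 4261 were within 500 bp of a protein-coding TSS. Within 500 bp of a TSS of the gene itself there were 2, at the proximal promoter of Stat92E and at dome, so that 2 of 10 pathway genes had a promoter summit against 13.4% of all protein-coding genes. Inside the genes there were 10 summits, and 4 lay past a 3' end. For 6 of the 14 the nearest protein-coding TSS belonged to another gene, kel for 3, ru for 2 and GstE13 for 1. Of these, the kel 5' UTR site (122 bp) and the GstE13 site (98 bp) were within 500 bp of that TSS. Just inside the 2 kb limit lay the kel intron site, 1932 bp from Socs36E. The nearest one beyond the limit was 2551 bp past the 3' end of upd2 and ranked 3468. Per kb of their windows the 10 genes held 0.0580 summits, against 0.0318 over the arms. The arms also include sequence far from genes, so the comparison is not like for like. Of the 14 summits, 5 lay in the window of Socs36E alone.

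A site is called supported by a replicate with a summit within 100 bp among that replicate's strongest 4261 entries. All 3 replicates supported 8 of the 14 sites, at Stat92E (3), Socs36E (3, with the kel sites), Ptp61F (1) and Su(var)2-10 (1). In the whole thresholded list the share was 48.5%. The list was made from the same 3 replicates, so this is a description. Genes with a site supported by all replicates made up 4 of the 10, against 16.2% of protein-coding genes. Among them were Ptp61F, Stat92E and Socs36E, the longest genes of the list. The share among genes of like span was not computed, here or for the single replicates below. Of 42 possible replicate entries, 40 lay within 100 bp of the thresholded summit, at a median distance of 7 bp among those within 200 bp. The sites supported by 1 replicate each were upd2 and the nearer Socs36E intron site, by replicate 3, and upd3, by replicate 2. Among the strongest 4261 entries of single replicates, the pathway genes with a summit in their window were 5 of 10 in replicate 1 (29.8% of all protein-coding genes), 6 of 10 in replicate 2 (28.6%) and 5 of 10 in replicate 3 (25.0%). Stat92E, Socs36E, Ptp61F and Su(var)2-10 were among them every time, dome in replicates 1 and 2, upd3 in replicate 2 and upd2 in replicate 3.

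**Figure D4:**
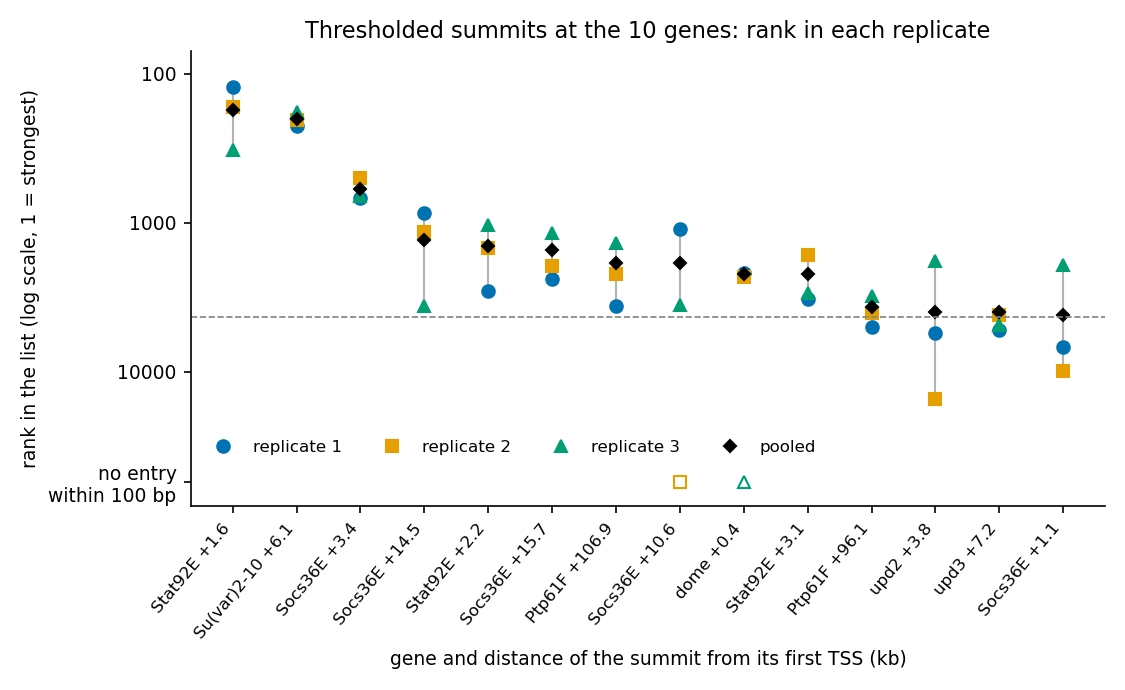
Rank of each of the 14 thresholded summits in replicates 1 to 3 (strongest entry within 100 bp) and in the pooled list, ordered by pooled rank; grey bars join the lowest and highest replicate, open marks mean no entry within 100 bp, and the dashed line is rank 4261. The strongest 3 sites rank 684 or better in all replicates, and the upd2 and nearer Socs36E intron sites are spread from rank 1797 to 15129 and from 1922 to 9940.

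Other genes of the pathway were covered by a list of 8 regulators and 13 reported target genes, of which 9 of 21 had a thresholded summit inside the gene or within 2 kb, against the 27.6% given above for all genes. Their median count was 0, the same as that of all genes. These genes too are long, with a median span of 6.80 kb against 2.17 kb. Of the 6 targets with a summit, crb spans 19.5 kb and zfh1, apt, chinmo and Fas3 span 23.3 to 73.3 kb, in the classes where 51.3% and 62.2% of all genes had one. Among the regulators 3 of 8 had one. The strongest was at ken, a repressor that acts on some STAT targets, with 4 summits, the best of rank 501 and replicate ranks 471, 806 and 471. Socs16D, a gene of the SOCS family, had 1 of rank 3143, 188 bp from its TSS, and Sumo, the SUMO gene, 1 of rank 2395. Neither of these summits was supported by all 3 replicates, and replicate 3 had no entry inside Sumo or within 2 kb. BRWD3, asrij, E(bx), lwr and Socs44A had none. Target genes with a summit were 6 of 13: slbo (best rank 112, replicate ranks 94, 218 and 94), apt (7 summits, best rank 408), zfh1 (2, best rank 563), Fas3 (3, best rank 747), crb (5, best rank 1175) and chinmo (3, best rank 1232). At slbo, a C/EBP gene, the best summit was 4545 bp from the TSS and past the 3' end. None was found at eve, at the stress peptide genes TotA, TotC and TotM, at the thioester protein genes Tep1 and Tep2 or at vir-1.

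The genes whose strongest entries ranked most like those of Stat92E over the 3 replicates were DPCoAC and att-ORFB, which lie so near that their windows hold the same entry, and then SCaMC. SCaMC ranked 86, 155 and 307 in replicates 1, 2 and 3, and the absolute differences in log10 rank from Stat92E summed to 0.211. The likeness is over 3 replicates of 1 condition.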

How the data were processed

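Per the sample file records, the authors called peaks and background on the alignments of each of 3 replicates and on the pooled alignments, always against 1 control, in dm6 coordinates, and derived the thresholded list from these lists. Neither aligner nor caller is given in the sources used here. Each entry's deposited score (signal value, scale not stated) was used only to rank entries within a list. The deposited −log10 q-value has a ceiling in each list (3.44 to 4.05) and served only to count entries and to describe sites. All 4261 thresholded peaks are entries of the pooled list.

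Gene models came from Ensembl release 115 and sequences from the RefSeq copy of genome release 6, which shares dm6 coordinates; no entry ran past an arm end. Positions are 1-based. A summit counted for a gene when inside it or within 2 kb. Bases printed from a 5' UTR were limited to 30. smt3 and arj were matched to Sumo and asrij through RefSeq synonyms, so all 21 listed genes were found.

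The members and lists were chosen with earlier results of these data known. No test was made, since there is 1 group. The genes named are all members, listed pathway genes with a thresholded summit (those without one were added), genes whose TSS is nearer to a member's summit, and the 3 genes most like Stat92E in rank. Further neighbours of members (Zw, CG1737) were named after their values were seen. Python 3.11.15, NumPy 2.4.6, pandas 2.3.3 and matplotlib 3.10.9 were used, and gene assignment and replicate matching were tested on simulated data. Alternatives changed the gene window, the strength and replicate support asked of a peak, the distances used, the motif window and the gene models, and left out each replicate in turn.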

Additional observations from a re-analysis of the deposited data

How the results depend on the processing

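Of the 45 recomputed values, 32 stayed within 1.5 times the value reported (for mean ranks, within 1 SD) and 13 did not. The 7 genes with a thresholded summit became 2, with 2 summits, when only summits within 500 bp of a TSS were counted. With the stronger 2130 thresholded peaks they became 4, with 8 summits, and likewise 4 and 8 with peaks supported by every replicate. The share of all genes fell too, from 27.6% to 13.4%, 17.3% and 16.2% under these settings. Giving each summit to the gene with the nearest protein-coding TSS left 5 genes and 8 of the 14 summits. Counting only summits inside the gene left 5 genes and 10 summits, with 12.3% of all genes. Allowing 5 kb to either side gave 8 genes and 17 summits, with 39.3% of all genes. Leaving out a replicate, that is, keeping thresholded peaks supported by both others, left 4 to 5 genes and 9 summits each time, and 18.3%, 17.3% and 21.2% of all genes without replicates 1, 2 and 3. This keeps fewer peaks by construction. Within 250 bp of a TSS of the gene there were 0 summits. Spans from RefSeq, an alternative added after the data were seen, gave the same 7 genes' count and 14 summits. Weak sites (upd2, upd3, the nearer Socs36E intron site) limit what can be said, since depth is unknown and replicate 3 had the fewest entries with a q-value of at most 0.05.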
